A study of Homo sapiens with 3 samples.

Results

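The aminergic and purinergic receptors examined here are 50 genes that encode the cell surface receptors for noradrenaline and adrenaline, dopamine, serotonin, histamine, adenosine and extracellular nucleotides. They were the rows of the deposited expression table whose Ensembl identifiers map in GENCODE 29 to a list of receptor symbols, and all 50 were found among 60660 genes, each under 1 identifier. The list holds 8 adrenoceptors, 5 dopamine receptors, 14 serotonin receptors, 4 histamine receptors, 4 adenosine receptors, 7 P2X channels and 8 P2Y receptors. The series is a survey of 1 unperturbed culture condition: SH-SY5Y, a human neuroblastoma line with a noradrenergic character, was grown in serum-containing medium, and RNA was taken from 3 separate flasks (replicates 1, 2 and 3) at about 60% confluency. Stranded mRNA libraries were read as single 50-base reads, and the table gives each gene's level in FPKM, a unit that corrects the fragment count for gene length and sequencing depth. There was no treatment, no control group and no second line, so the comparisons are of each receptor with a fixed level and of receptors with one another within a library. The flasks are separate cultures of 1 line, so the p-values measure only the spread between flasks.

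Most of these receptors take part in slow signalling by small transmitters in the nervous system. Those coupled to Gi lower cyclic AMP and often sit on nerve endings, where they restrain release of the transmitter; those coupled to Gs raise cyclic AMP, and those coupled to Gq release calcium from internal stores. The P2X receptors and the serotonin receptor subunits HTR3A and HTR3B differ from all the others in being ligand-gated ion channels. Noradrenergic neurons and chromaffin cells, which come from the same neural crest lineage as neuroblastoma, are known for autoreceptors that sense their own transmitter.

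SH-SY5Y cells held a small set of these receptors at moderate levels. 11 of the 50 genes were above 1 FPKM: DRD2, P2RX5, P2RY11, ADRA2C, HRH3, P2RX4, P2RX7, ADORA1, P2RX6, HTR1E and HTR6. Their means ran from 2.01 FPKM for HTR6 to 9.45 FPKM for DRD2. 21 receptors were below 1 FPKM, 3 (ADORA2A, ADORA2B and DRD4) could not be placed on either side, and 15 were listed at 0 FPKM in every library. The placement is limma's moderated two-sided test of whether log2(FPKM + 0.1) differs from its value at 1 FPKM, with Benjamini-Hochberg adjustment over all 31736 genes tested and a threshold of 0.05. The same test called 45.5% of all genes tested and 70.6% of protein-coding genes tested above 1 FPKM, and 43.7% and 24.6% below it. All 50 receptors are protein-coding. 35 of them passed the filter, which asked for a value above 0 in at least 1 library, and 26 of those had a value above 0 in all 3. The shares above are of genes tested, so they compare with 11 and 21 of these 35 receptors, not of all 50. The median receptor had 0.0347 FPKM, against 5.40 FPKM over all 19680 protein-coding genes. A bulk level is an average over the flask, so few cells with much of a transcript and many cells with little of it cannot be told apart.

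**Figure D1:**
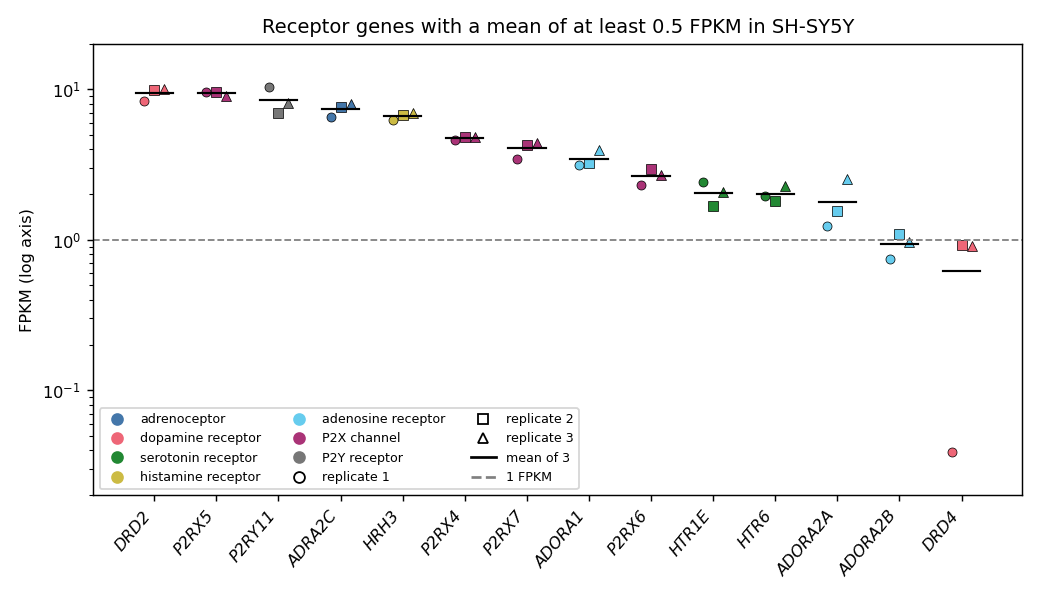
Expression of the 14 receptors with a mean of at least 0.5 FPKM, which are also those called above 1 FPKM or neither, in each of the 3 libraries. Points are libraries, black bars are means, and the vertical axis is FPKM on a log axis. DRD2, P2RX5, P2RY11, ADRA2C and HRH3 sit highest, with means of 6.67 to 9.45 FPKM, and DRD4 has 1 library near 0 and the other two near 0.9 FPKM.

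Across the 11 receptors called above, the coefficient of variation between flasks ranged from 2.68% to 20.3%, with a median of 11.6%. The test behind the call uses the spread between flasks, so a low spread is partly built into this set. ADORA2A, with all 3 libraries over 1 FPKM, had a coefficient of 37.8% and was not called above. Neighbours in the order were not always separable. DRD2 and P2RX5 differed by 0.00 ± 0.18 on the log2(FPKM + 0.1) scale (SD, n = 3), and neither P2RX5 and P2RY11 nor P2RY11 and ADRA2C differed by more than their spread. Below them ADRA2C was higher than HRH3 by 0.14 ± 0.06, and HRH3 was higher than P2RX4 by 0.48 ± 0.05, each in 3 of 3 libraries. P2RX4, P2RX7, ADORA1 and P2RX6 followed in that order, each higher than the next in all 3 libraries, while P2RX6 and HTR1E, HTR1E and HTR6, and HTR6 and ADORA2A, taken as neighbours in the order, did not differ by more than their spread.

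Promoter sequence is shown for 4 receptors to set beside these levels: ADRA2C and P2RX4, both called above 1 FPKM, P2RX7, called above and a neighbour of P2RX4 on chromosome 12, and ADRA1B, which was listed at 0 in all 3 libraries. Each window runs from 250 bases before to 50 bases after a RefSeq transcript start on GRCh38.p14, read 5′ to 3′ along the gene's plus strand, with every CG dinucleotide in capitals. The windows are chr4:3766135-3766434 for ADRA2C, chr12:121209879-121210178 for P2RX4, chr12:121132626-121132925 for P2RX7 and chr5:159916232-159916531 for ADRA1B, whose RefSeq start lies inside the GENCODE 29 gene.
ADRA2C: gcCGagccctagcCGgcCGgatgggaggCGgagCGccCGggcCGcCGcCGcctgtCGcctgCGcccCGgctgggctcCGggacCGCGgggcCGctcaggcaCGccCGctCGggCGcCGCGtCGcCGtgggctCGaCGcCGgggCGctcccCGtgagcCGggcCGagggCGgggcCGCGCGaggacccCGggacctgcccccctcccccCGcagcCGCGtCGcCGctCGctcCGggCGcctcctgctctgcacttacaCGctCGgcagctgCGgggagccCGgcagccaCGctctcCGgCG
P2RX4: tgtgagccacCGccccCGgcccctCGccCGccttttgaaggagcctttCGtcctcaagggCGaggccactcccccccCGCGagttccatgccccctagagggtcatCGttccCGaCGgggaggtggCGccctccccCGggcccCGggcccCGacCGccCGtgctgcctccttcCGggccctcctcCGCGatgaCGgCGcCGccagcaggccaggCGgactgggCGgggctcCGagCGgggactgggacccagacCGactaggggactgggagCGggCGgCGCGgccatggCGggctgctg
P2RX7: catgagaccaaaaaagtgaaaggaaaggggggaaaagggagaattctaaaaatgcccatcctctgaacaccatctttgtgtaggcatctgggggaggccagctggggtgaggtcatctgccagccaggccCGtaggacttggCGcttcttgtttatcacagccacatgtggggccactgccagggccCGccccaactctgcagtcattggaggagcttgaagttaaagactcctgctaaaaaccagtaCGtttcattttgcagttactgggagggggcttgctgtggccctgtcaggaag
ADRA1B: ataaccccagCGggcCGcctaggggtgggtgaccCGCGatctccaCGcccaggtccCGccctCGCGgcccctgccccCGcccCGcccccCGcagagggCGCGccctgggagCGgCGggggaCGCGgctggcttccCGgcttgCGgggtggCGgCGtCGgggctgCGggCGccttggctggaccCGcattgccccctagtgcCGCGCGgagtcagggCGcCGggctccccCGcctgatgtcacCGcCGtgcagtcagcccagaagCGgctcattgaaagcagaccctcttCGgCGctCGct

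The ADRA2C window holds 51 CG dinucleotides, the P2RX4 window 33, the P2RX7 window 4 and the ADRA1B window 37. A CG-rich window therefore occurred both in a receptor at several FPKM and in one listed at 0. The motif searched was CG, which reads the same on both strands, and a window was counted as CG-rich with at least 15 of them. RefSeq windows were matched for 34 of the 50 receptors, and the window richest in CG was taken where a gene had several. 5 of 7 matched receptors called above were CG-rich, 7 of 14 called below and 6 of 11 listed at 0, and both matched receptors in the neither class were. Over the 34 matched receptors the share was 58.8%, against 63.1% of the windows of protein-coding genes and 48.9% of all 35116 windows. These reference shares count every window, also where a gene has several, so they are not like for like with the receptor share. The receptor windows left out held at most 11 CG, so the receptor share over all their windows would be lower than 58.8%. The median number of CG per window was 19 in the receptors called above, 20 in those called below and 19 in those listed at 0.

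**Figure D2:**
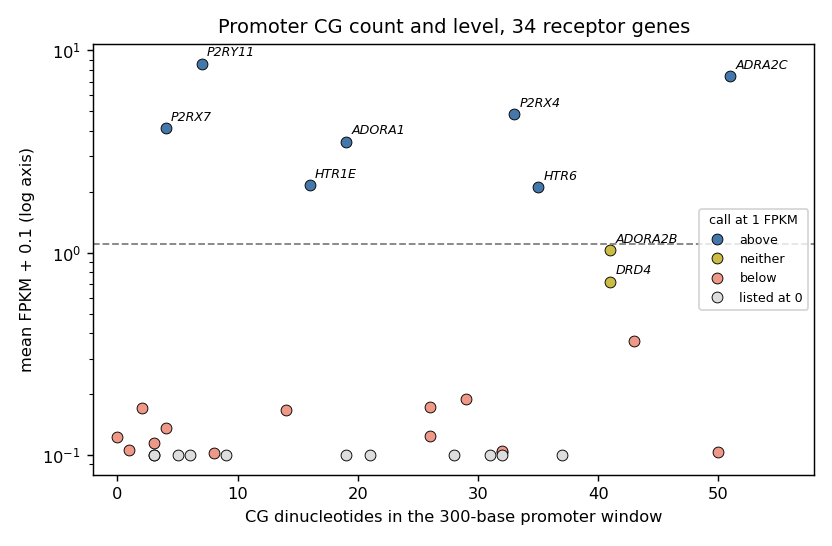
Number of CG dinucleotides in the 300-base promoter window of each of the 34 matched receptors, shown with the class of level of each receptor. The classes overlap over nearly their whole range, with medians of 19 for receptors called above, 20 for those called below and 19 for those listed at 0.

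Among the adrenoceptors, 1 of 8 was above 1 FPKM. ADRA2C, a Gi-coupled autoreceptor of noradrenergic endings and chromaffin cells (ENSG00000184160), had 6.55, 7.62 and 7.94 FPKM in replicates 1, 2 and 3. Its mean of 7.37 ± 0.731 FPKM (SD, n = 3) was 2.76 above the level on the log2 scale (SE 0.0919, limma adjusted p = 1.13e-04). It is encoded at chr4:3766348-3768526 on the plus strand. The other 4 adrenoceptors with a value were all called below 1 FPKM: ADRA1A, a Gq-coupled receptor of smooth muscle, the Gi-coupled ADRA2A and ADRA2B, and ADRB3, a Gs-coupled receptor of fat and bladder. Their means ran from 0.00633 to 0.067 FPKM. ADRA1B, ADRA1D and the cardiac Gs-coupled receptor ADRB1 were listed at 0.

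ADRA2A, the main presynaptic autoreceptor of central noradrenergic neurons, and ADRA2C were set against each other as the choice of autoreceptor. ADRA2A had 0.026, 0.010 and 0.039 FPKM, which is about 2, 1 and 6 reads, against the 6.55 to 7.94 FPKM of ADRA2C. ADRA2A was lower in each library, and ADRA2A minus ADRA2C was -5.90 ± 0.21 on the log2(FPKM + 0.1) scale (SD, n = 3). With so few reads for ADRA2A the pseudocount sets the size of the difference, which for ADRA2A against ADRA2C was -3.03 with a pseudocount of 1 and -7.81 with 0.01. ADRA2B, with about 3 reads in each library, was also far under ADRA2C. This was 1 of 8 comparisons between related receptors that both had a value above 0, out of 13 laid out; in all 8 the difference had the same sign in 3 of 3 libraries. The exact two-sided sign-flip test cannot go below p = 0.25 with 3 libraries, and all 8 stood at that value before and after Benjamini-Hochberg adjustment.

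**Figure D3:**
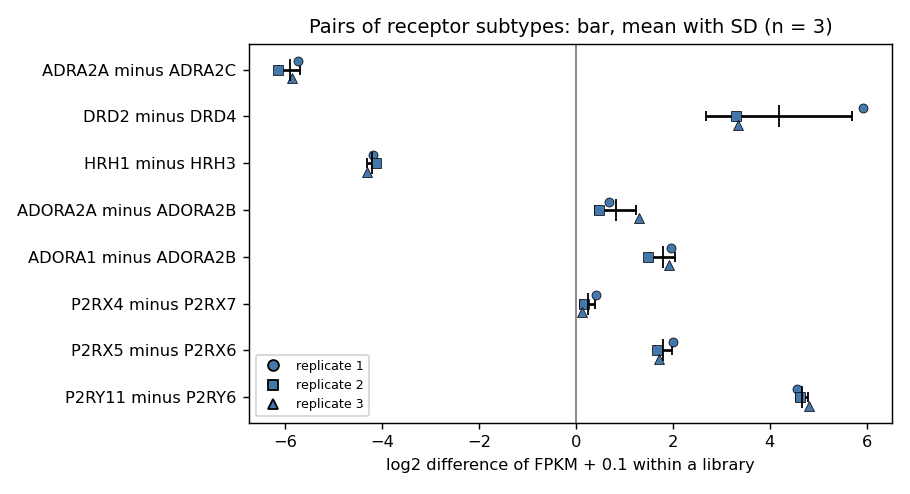
Difference in log2(FPKM + 0.1) between the first and the second gene of 8 receptor pairs (horizontal axis, 0 marked), with a point per library and the mean and SD in black. ADRA2A minus ADRA2C lies farthest below 0 at -5.90, a size that depends on the pseudocount, P2RY11 minus P2RY6 farthest above at 4.66, and P2RX4 minus P2RX7 nearest to 0 at 0.24.

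Among the dopamine receptors DRD2 stood alone above 1 FPKM, and it was the highest of all 50 receptors by mean. DRD2 (ENSG00000149295), the Gi-coupled autoreceptor of dopamine neurons and the main target of antipsychotic drugs, lies at chr11:113409615-113475691 on the minus strand. It had 8.34, 9.93 and 10.1 FPKM in replicates 1, 2 and 3, a mean of 9.45 ± 0.968 FPKM and a log2 distance from the level of 3.11 (SE 0.0939, limma adjusted p = 8.98e-05). All 3 libraries were well above 1 FPKM, with replicate 1 the lowest. DRD5, a Gs-coupled receptor, had about 1 read in 1 library and was called below, and DRD1, the chief Gs-coupled receptor of the striatum, and DRD3, a Gi-coupled receptor of the limbic system, were listed at 0.

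DRD4 (ENSG00000069696), a Gi-coupled receptor close in sequence to DRD2, was the receptor on which the libraries differed most among those with a mean of at least 0.5 FPKM. It had 0.039, 0.917 and 0.905 FPKM in replicates 1, 2 and 3. Replicate 1 lay under the 0.109 FPKM that 3 reads would give there, while the other two lay far over their own 3-read levels of 0.0821 and 0.054 FPKM. Its log2 distance from the level was -1.08 (SE 0.749), and limma left it in the neither class (adjusted p = 0.254). Without replicate 1 the distance was -0.12. Of 663 protein-coding genes with a mean of 0.5 up to 1 FPKM, 17 (2.56%) had a ratio of highest to lowest library at least as large as the 23.5 of DRD4, and the median ratio was 1.54. The 17 include DRD4 itself, and a gene with a library at 0 would count among them. Since DRD4 was singled out here for its wide ratio, the small share is a description and no test. DRD2 minus DRD4 was 5.92, 3.30 and 3.34 in the 3 libraries, so DRD2 was higher in each, and without replicate 1 the mean difference was 3.32.

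Serotonin receptors formed the largest family and gave the smallest share of receptor signal. 2 of 14 were called above 1 FPKM, 7 below, and 5 (HTR1A, HTR1B, HTR1F, HTR2A and HTR3A) were listed at 0. HTR1E (ENSG00000168830), a Gi-coupled receptor whose gene is absent from the mouse, had 2.42, 1.68 and 2.07 FPKM, or about 97, 89 and 166 reads (mean 2.06 ± 0.372, limma adjusted p = 0.00527). HTR6 (ENSG00000158748), a Gs-coupled receptor found mainly in brain, had 1.94, 1.82 and 2.27 FPKM, or about 75, 93 and 176 reads (mean 2.01 ± 0.234, limma adjusted p = 0.00234). Neither gene was separable from the other, since their log2 difference was 0.02 ± 0.25. They lie at chr6:86937306-87016683 and chr1:19665287-19679562, both on the plus strand and each with 1 annotated transcript.

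Of the 7 serotonin receptors below 1 FPKM, HTR2B was the highest. This Gq-coupled receptor, known for its part in heart valve disease, had 0.52, 0.393 and 0.246 FPKM, or about 23, 23 and 22 reads, and was called below by limma (adjusted p = 0.00900), a call lost without replicate 2 (adjusted p = 0.0634). PSMD1, a proteasome subunit gene on the other strand at 78.5 ± 5.35 FPKM, overlaps 24.9% of the exonic bases of HTR2B, so its reads and those of HTR2B may not be separable. The other 6, HTR1D, HTR2C, HTR3B, HTR4, HTR5A and HTR7, had means of 0.00267 to 0.074 FPKM, with HTR4, a Gs-coupled receptor of the gut, the lowest. HTR3B, an accessory channel subunit, had 0.051, 0.058 and 0 FPKM while HTR3A, the subunit it needs to form a channel, was listed at 0 in each library. HTR7, a Gs-coupled receptor, was detected in 1 library at 0.012 FPKM, whereas its processed pseudogene HTR7P1 had 0.806 ± 0.0848 FPKM, so reads of the pair are uncertain.

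Among the histamine receptors the neuronal subtype was the one above 1 FPKM. HRH3 (ENSG00000101180), a Gi-coupled receptor on nerve endings that restrains release of histamine and other transmitters, lies at chr20:62214970-62220267 on the minus strand. It had 6.24, 6.79 and 6.98 FPKM (mean 6.67 ± 0.382), 2.62 over the level on the log2 scale (SE 0.0745, limma adjusted p = 7.9e-05). HRH1, the Gq-coupled target of allergy drugs, had 0.249, 0.297 and 0.256 FPKM and was below the level. HRH1 minus HRH3 was -4.20 ± 0.10, and the HRH3 mean was 24.9 times that of HRH1. HRH2, the Gs-coupled receptor of gastric acid secretion, and HRH4, a Gi-coupled receptor of blood cells, were also below 1 FPKM, with means of 0.0897 and 0.023 FPKM.

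Among the adenosine receptors 1 of 4 was called above 1 FPKM, 2 could not be placed and 1 was listed at 0. ADORA1 (ENSG00000163485), a Gi-coupled receptor that dampens neuronal firing, had 3.16, 3.24 and 3.93 FPKM (mean 3.45 ± 0.423) and was called above at a log2 distance of 1.68; it lies at chr1:203090654-203167405, and the 1 gene that overlaps its exons, AC105940.2 on the other strand, was listed at 0. ADORA2B (ENSG00000170425), a Gs-coupled receptor that responds to high adenosine, had 0.742, 1.09 and 0.971 FPKM, which straddles the level, and it stayed in the neither class (limma adjusted p = 0.505). ADORA1 minus ADORA2B was 1.95, 1.49 and 1.91 in the 3 libraries. ADORA3, a Gi-coupled receptor of immune cells, was listed at 0.

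ADORA2A (ENSG00000128271), the Gs-coupled receptor of the striatum and a target of caffeine, had 1.24, 1.56 and 2.53 FPKM. All 3 libraries were over 1 FPKM, but the spread left the receptor in the neither class (log2 distance 0.71, limma adjusted p = 0.0552). A readthrough transcript unit, SPECC1L-ADORA2A, covers 56.8% of its exonic bases on the same strand and was listed at 4.39, 3.30 and 4.50 FPKM, higher than ADORA2A in every library. ADORA2A-AS1 overlaps 285 exonic bases on the other strand, at 0.359 ± 0.0239 FPKM. No label or header says how fragments of the shared bases were divided between the genes, so the ADORA2A level is uncertain. ADORA2A minus ADORA2B was 0.82 ± 0.43, with ADORA2A higher in 3 of 3 libraries.

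The P2X channels, cation channels opened by extracellular ATP, were the family with most members above 1 FPKM: 4 of 7. P2RX3, a channel of pain fibres, was below with 0.085, 0.129 and 0 FPKM, and P2RX1, a channel of platelets and smooth muscle, and P2RX2, which pairs with P2RX3 in sensory neurons, were listed at 0. P2RX5 (ENSG00000083454) had 9.55, 9.65 and 9.02 FPKM (mean 9.41 ± 0.342), 3.11 over the level on the log2 scale (SE 0.0688, limma adjusted p = 4.80e-05), and the 3 libraries lay within 1 FPKM of one another. P2RX6 (ENSG00000099957), a subunit that forms channels poorly without other subunits, had 2.32, 2.95 and 2.68 FPKM (mean 2.65 ± 0.316, limma adjusted p = 0.00102). P2RX5 minus P2RX6 was 1.80 ± 0.18, and the P2RX5 mean was 3.55 times that of P2RX6. The P2RX5 gene at chr17:3672199-3696404 shares 41.6% of its exonic bases with the readthrough unit P2RX5-TAX1BP3 on the same strand, which had 0.436 ± 0.078 FPKM, so the P2RX5 level is uncertain in the same way as the other receptors with readthrough units. P2RX6 shares 69 exonic bases with THAP7-AS1 on the same strand (2.02 ± 0.363 FPKM) and 113 with SLC7A4 on the other (0.265 ± 0.0984 FPKM). Its transcribed pseudogene P2RX6P had 0, 0.396 and 0.087 FPKM in replicates 1, 2 and 3, and how reads of the pair were divided was not tested.

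P2RX4 and P2RX7, whose genes lie 21825 bases apart on chromosome 12 at chr12:121209857-121234106 and chr12:121132819-121188032 on the same strand, were both called above 1 FPKM, while their windows shown above hold 33 and 4 CG. P2RX4 (ENSG00000135124), a channel with high calcium permeability, had 4.62, 4.83 and 4.85 FPKM (mean 4.77 ± 0.127), the tightest of the receptors called above. P2RX7 (ENSG00000089041), a channel that opens at high ATP and drives interleukin release in macrophages, had 3.42, 4.29 and 4.42 FPKM (mean 4.04 ± 0.544). P2RX4 minus P2RX7 was 0.42, 0.17 and 0.13 in the 3 libraries, a mean of 0.24 ± 0.16, so P2RX4 was higher in each by a small margin. Both genes are also known from macrophages and microglia. Of 8 markers of those cells, AIF1, ITGAM and C1QA were listed at 0 in every library, 4 were called below 1 FPKM, and TMEM119 was called above at 27.3 ± 0.216 FPKM; the 8 markers summed to 27.655 to 27.674 FPKM per library, nearly all of it TMEM119.

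Among the P2Y receptors, which couple nucleotides to G proteins, 1 of 8 was above 1 FPKM. P2RY11 (ENSG00000244165), an ATP receptor that couples to both Gs and Gq and whose gene is missing from the mouse, had 10.4, 6.99 and 8.15 FPKM (mean 8.51 ± 1.73), the widest spread in FPKM of any receptor; its log2 distance was 2.95 (SE 0.144, limma adjusted p = 3.06e-04). It lies at chr19:10111538-10115372, where the readthrough unit PPAN-P2RY11 covers 50.0% of its exonic bases and had 2.67 ± 0.465 FPKM. Small stretches are also shared with PPAN (4.23%, same strand, 45.0 ± 3.29 FPKM) and EIF3G (4.92%, other strand, 461 ± 19.5 FPKM), so the P2RY11 level is uncertain. P2RY6, a Gq-coupled UDP receptor, had 0.346, 0.187 and 0.195 FPKM, and P2RY11 minus P2RY6 was 4.66 ± 0.13. P2RY2, P2RY4, P2RY12, the platelet target of clopidogrel, and P2RY13 were below 1 FPKM with means of 0.006 to 0.0913 FPKM, and P2RY1 and P2RY14 were listed at 0.

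**Figure D4:**
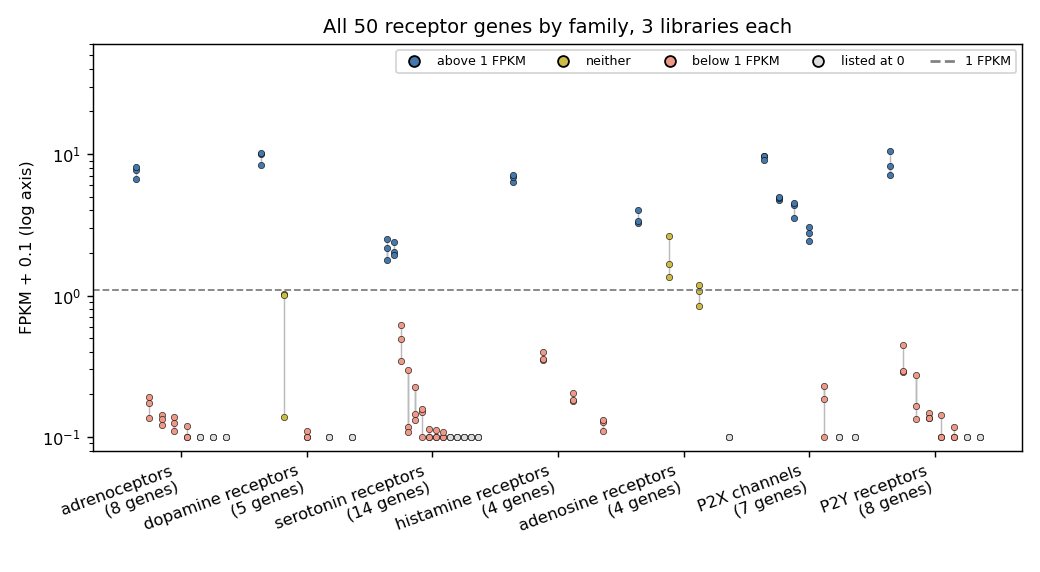
All 50 receptors by family, with a point per library; the vertical axis is FPKM + 0.1 on a log axis, the dashed line is the level of 1 FPKM, and colour gives the class. Each family has at least 1 receptor above the line, P2X channels have 4, and 15 receptors lie at the floor in all 3 libraries.

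Each of the 7 families thus had at least 1 receptor above 1 FPKM, and in 5 of them it was exactly 1. Grouped by the coupling usually given for them, 5 of 19 Gi-coupled receptors were above 1 FPKM, 7 below, 1 neither and 6 listed at 0. Of 10 Gs-coupled receptors 1 was above, 5 below, 2 neither and 2 listed at 0. Of 12 Gq-coupled receptors 1, P2RY11, was above, 7 below and 4 listed at 0, and of 9 ion channel subunits 4 were above, 2 below and 3 listed at 0. P2RY11 is also coupled to Gs, so the single Gq-coupled call rests on where it is placed. No test was made between these groups. With the level raised to 5 FPKM, which 56.6% of protein-coding genes tested passed, 5 receptors were above it: DRD2, P2RX5, P2RY11, ADRA2C and HRH3. At 0.5 FPKM, which 74.2% of protein-coding genes tested passed, 13 receptors were above, the 2 added being ADORA2A and ADORA2B. With the filter dropped, 36 of the 50 receptors were called below 1 FPKM, against 34.5% of protein-coding genes; 15 of the 36 are the receptors listed at 0, whose constant value fixes that call, so the count is no added evidence.

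**Figure D5:**
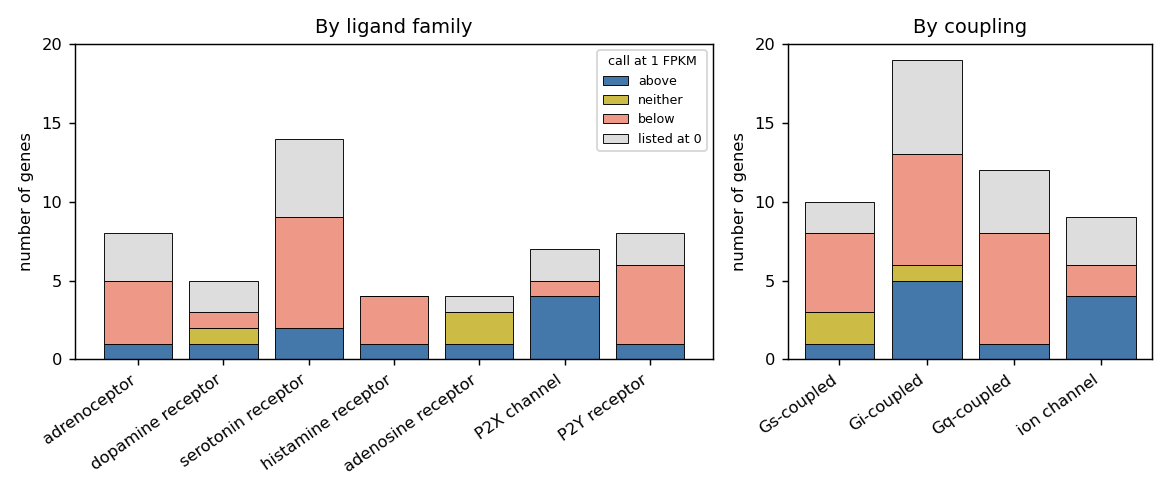
Number of receptors called above 1 FPKM, neither, below 1 FPKM or listed at 0, stacked per family and per usual coupling; the vertical axis is a count of genes. P2X channels have 4 of 7 above, serotonin receptors 2 of 14, and every other family 1.

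The receptors' summed level was 62.7, 65.2 and 67.9 FPKM in replicates 1, 2 and 3. P2X channels made up 31.9%, 33.5% and 30.9% of it (mean 32.1% ± 1.33), the highest share in each library. Dopamine receptors gave 15.4% ± 1.78, P2Y receptors 13.7% ± 3.17, adrenoceptors 11.5% ± 0.672, histamine receptors 10.8% ± 0.219, adenosine receptors 9.40% ± 1.40 and serotonin receptors 7.13% ± 0.725. The 5 highest receptors alone gave 63.5% ± 1.80. The P2Y share was the least steady, at 17.3%, 11.3% and 12.5%, and follows the P2RY11 values.

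Gene structure was compared among the 41 receptors that couple to G proteins, many of which have their whole coding sequence in 1 exon. 2 of 7 receptors called above had a single coding exon, as did 9 of 19 called below and 7 of 12 listed at 0, and none of the 3 in the neither class. Median exonic length was 2295 bases in those called above, 3371 in those called below and 2802.5 in those listed at 0. Of 10 pairs of receptor genes within 500 kb of each other, 3 set a receptor called above 1 FPKM beside one called below or listed at 0. P2RX5 and P2RX1 lie 200188 bases apart on chromosome 17, with 9.41 FPKM against a listing at 0 in all 3 libraries. DRD2 lies 428986 bases from HTR3B on chromosome 11, at 9.45 against 0.0363 FPKM, and 499190 bases from HTR3A, listed at 0. The cluster of P2RY12, P2RY13 and P2RY14 on chromosome 3 held no receptor above 1 FPKM.

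Genes that make, move or destroy the ligands were examined as lists. Of 14 genes of serotonin and histamine metabolism and transport, 4 were above 1 FPKM, 8 below, and HDC, the histamine-forming enzyme, and SLC22A3, an amine transporter, were listed at 0. The highest were DDC, the decarboxylase shared by serotonin and catecholamine synthesis, at 52.6 ± 9.45 FPKM, and the amine-degrading enzymes MAOA at 47.3 ± 3.70 and MAOB at 11.9 ± 0.565 FPKM. The rate-limiting serotonin enzymes TPH1 and TPH2 were below, at 0.0827 and 0.385 FPKM, as was the serotonin transporter SLC6A4 at 0.0493 FPKM, and the lowest member with a value was AOC1, which degrades histamine, at 0.00367 FPKM.

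Of 19 genes of nucleotide release, breakdown and adenosine handling, 9 were above 1 FPKM, 9 below and DPP4, a surface peptidase that binds adenosine deaminase, was listed at 0. SLC29A1, the main adenosine transporter, had 50.2 ± 0.702 FPKM, ENPP2, a phosphodiesterase of the ectonucleotidase family, 33.3 ± 1.58 and ADK, the kinase that clears adenosine, 22.7 ± 0.391. PANX1, a channel that releases ATP, had 18.1 ± 1.09 FPKM. NT5E, the surface enzyme that makes adenosine from AMP, was below at 0.414 ± 0.0764 FPKM, as was SLC17A9, the vesicular nucleotide transporter, at 0.0107 FPKM. The lowest with a value was SLC28A3, a nucleoside transporter, at 0.00167 FPKM. Of 9 receptor kinases and arrestins, which switch off activated receptors, 7 were above 1 FPKM; the highest were GRK3 at 74.5 ± 3.07, GRK6 at 45.0 ± 2.68 and ARRB2 at 43.3 ± 0.548 FPKM. The retinal kinase GRK1 was in the neither class at 0.917 ± 0.0936 FPKM (limma adjusted p = 0.287), and GRK7, the cone kinase, was listed at 0.

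Set beside other transmitter receptors of the same libraries, the aminergic and purinergic receptors had the lowest median, at 0.0347 FPKM over 50 genes. Of 21 acetylcholine receptor genes 9 were above 1 FPKM, 11 below and 1 listed at 0, with a median of 0.544 FPKM and CHRNA3, a ganglionic nicotinic subunit, the highest at 73.8 FPKM. Of 39 glutamate, GABA and glycine receptor channel genes 14 were above, 16 below, 2 neither and 7 listed at 0, with a median of 0.104 FPKM. These are counts and medians side by side, with no test between the lists.

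The libraries differed in depth, which sets the lowest level each could show. FPKM values of single-transcript genes fell on whole multiples of what 1 read is worth, which placed the libraries at about 21600000, 28600000 and 43500000 reads; 96.8%, 96.7% and 96.3% of the low values were whole within 0.1 read. At those depths 3 reads on a transcript of 1 kb correspond to 0.139, 0.105 and 0.069 FPKM. The 3-read levels of the 15 receptors listed at 0 ran from 0.0105 to 0.0858 FPKM, so a 0 can still hide levels up to about these. They are not a detection limit, since values under 3 reads were listed for other receptors, such as 0.013 FPKM for HTR1D in replicate 2. These limits cover counting error only. 9 of 10 noradrenergic neuroblastoma markers were above 1 FPKM, the exception being TH, in the neither class at 1.12 FPKM. Among markers of other cells, 4 of 5 for fibroblasts (DCN at 14.7 FPKM, PDGFRB at 29.8, COL1A1 and LUM), 1 of 5 for glia (GFAP), 1 of 4 for platelets (ITGA2B) and none for lymphoid, endothelial or epithelial cells were above. The summed level per library ran from 50.1 to 57.2 FPKM for the fibroblast markers, from 6.81 to 8.07 for the glial ones and from 2.64 to 4.11 for the platelet ones, with PF4, PPBP and GP9 at 0; their part in the receptor levels was not tested.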

How the data were processed

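Levels of 50 receptor genes were read from 3 SH-SY5Y libraries. The table deposited by the authors holds 1 FPKM value per Ensembl gene and library. Cufflinks 2.2.1, TopHat2 2.1.1, FastQC 0.10.1, bcl2fastq and the build hg38 are listed in the submitters' processing notes. Not given in the sources used here are the role of each tool, the gene annotation and whether strand was used in counting. The library kit was stranded, per the labels' protocols.

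Identifiers were matched to GENCODE 29 on GRCh38 for names, exons and coordinates (57046 of 60660 matched). 28 genes with a missing value were kept without it, none of them a receptor. No gene above 0 had the same value in all libraries. Since FPKM values are not counts, log2(FPKM + 0.1) was tested against 1 FPKM by limma (version 3.58.1, R 4.3.3, intercept only, two-sided, Benjamini-Hochberg over 31736 genes). The transform understates distances of low genes. The test was tested on simulated data. Genes at 0 in every library were not tested and are described as listed at 0, since 0 can be a failed estimate. Pairs were compared within libraries with an exact sign-flip test. Exon overlaps came from GENCODE, promoter windows from RefSeq. Whole reads were read from the FPKM steps of genes with 1 transcript and at least 600 exonic bases, assuming fragments of 200 bases. The depth they give is an estimate. The other steps ran in Python 3.11.15 (scipy 1.17.1, pandas 2.3.3, numpy 2.4.6, matplotlib 3.10.9).

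Values in every library are given for receptors with a mean of at least 0.5 FPKM or called above or neither, for pairs, and for the 3 highest and the lowest genes of each list; further genes, such as HTR3B and PANX1, were added after values were seen. The receptors and lists were chosen with earlier results of these data known. Alternatives were another level (5 or 0.5 FPKM), pseudocount (1 or 0.01), rescaling, filter, summed identifiers and each library left out.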

Additional observations from a re-analysis of the deposited data

How the results depend on the processing

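No paired analysis was possible because the series has 1 group, so replicate numbers pair nothing. The 11 receptors called above 1 FPKM kept that call under other pseudocounts, rescaling, and with any 1 library left out, and all 56 recomputed pair differences kept their sign; 413 of 430 recomputed receptor levels kept direction and call. Counts of low genes moved with the level and the filter.

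With a level of 5 FPKM, 5 receptors were above: 1 adrenoceptor, 1 dopamine, 0 serotonin, 1 histamine, 0 adenosine, 1 P2X and 1 P2Y. By coupling these were 3 Gi, 0 Gs, 1 Gq and 1 ion channel. The counts below it that moved were 2 dopamine, 3 adenosine, 2 P2X and 8 Gs-coupled receptors and 1 kinase or arrestin. Of the glutamate, GABA and glycine genes, 6 were above it. Log2 distances changed sign there for HTR1E (-1.26), HTR6 (-1.28), ADORA1 (-0.53), ADORA2A (-1.50), P2RX4 (-0.068), P2RX6 (-0.90) and P2RX7 (-0.31). With 0.5 FPKM, 3 adenosine and 3 Gs-coupled receptors were above, and ADORA2B lay at 0.77.

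A filter at a mean of 0.1 FPKM left 3 receptors called below: 0 adrenoceptors, 0 dopamine, 1 serotonin, 1 histamine, 0 P2X and 1 P2Y; by coupling 3 Gq, 0 Gi, 0 Gs and 0 ion channels; and 3 serotonin and histamine metabolism, 3 nucleotide, 6 acetylcholine and 5 glutamate, GABA and glycine genes. With no filter 36 receptors were below: 7 adrenoceptors, 3 dopamine, 12 serotonin, 3 histamine, 1 adenosine, 3 P2X and 7 P2Y. By coupling these were 11 Gq, 13 Gi, 7 Gs and 5 ion channels. Among the receptor kinases and arrestins 1 was below. These shifts follow from which genes at or near 0 enter the test.

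Without a test, a gene was called only where every library lay on the same side of 1 FPKM. By that rule 2 dopamine receptors and 1 kinase or arrestin were below and 2 adenosine and 2 Gs-coupled receptors above. Rescaled to TPM, which moved all levels by -0.54 to -0.46 on the log2 scale, 1 adenosine receptor (ADORA2B, limma adjusted p = 0.0174) and 1 kinase or arrestin were below. With 1 library left out, counts below ran from 0 to 1 for dopamine (0 without replicate 3), 4 to 7 for serotonin (4 without replicate 2), 3 to 5 for P2Y and 3 to 4 for Gs-coupled receptors and 5 to 8 for nucleotide genes (lowest without replicate 3), and ADORA2B from -0.21 to 0.038. The receptors lost were ADRB3 without replicate 1, HTR1D, HTR7 and HTR2B without replicate 2, and DRD5, HTR4, P2RY12 and P2RY13 without replicate 3. All but HTR2B were at 0 in the libraries that were left and so not tested. The cause of the HTR2B and ADORA2B changes was not tested. Depth limits the low receptors: in 6 of those called below, every value was under 3 reads.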
